A study of Mus musculus with 8 samples.

Results

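Of the 1978 mouse mature miRNAs in the count table of 3A cells and of the extracellular vesicles (EVs) they release, 101 had at least 20 reads in each of the 4 cell libraries and 0 reads in each of the 4 EV libraries. These are called EV-unread miRNAs here, and members in the plots. They were chosen by those counts, so the zeros in EVs and the minimum in cells are a description and were not tested. A total of 303 miRNAs reached 20 reads in every cell library, and 201 of them had reads in at least 1 EV library and served for comparison. miR-31-3p met the counts but was left out by the rule. Mature miRNAs of the same sequence share reads: let-7a-1-3p and let-7c-2-3p are identical in sequence, had the same count in every library and cannot be told apart. They are counted as 2 of the 101.

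3A is a non-tumorigenic line of murine hepatocytes. The cells had been infected with the pSUPER retro puro retroviral vector and selected with puromycin, and carried either a scrambled shRNA (shCTR) or an shRNA against PCBP2 (shPCBP2). EVs were purified by centrifugation from medium with EV-depleted serum that each kind of cell had conditioned for 72 h. There were 2 biological replicates of each of the 4 groups, namely shCTR cells, shPCBP2 cells, shCTR EVs and shPCBP2 EVs, and cel-miR-39, a nematode miRNA, served as a spike-in added to every sample. Every group therefore shares the vector, the selection and the cell line, and the shPCBP2 groups are stable knockdowns rather than deletions of the gene. The level of PCBP2 itself is not read by small RNA libraries.

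A miRNA hairpin yields a duplex of 2 strands, of which the guide strand is usually kept by Argonaute and the passenger strand is usually degraded. The strand from the 5′ side of the hairpin is named 5p and that from the 3′ side 3p. Bases 2 to 8 of the mature strand, the seed, pair with target mRNAs. RNA-binding proteins that read short sequence motifs are known to hold some miRNAs in the cell or to load others into EVs, and PCBP2 is an RNA-binding protein with a preference for C-rich RNA. The study asked whether PCBP2 keeps miRNAs with a CELL motif inside hepatocytes.

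RefSeq mature sequences (build GRCm38.p6) were matched to 90 of the 101 EV-unread miRNAs. The most abundant of them in cells are shown first, since their level in EVs is the best bounded, written 5′ to 3′ with the seed in capitals.
miR-27a-5p: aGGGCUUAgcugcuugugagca
miR-2137: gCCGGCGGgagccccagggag
miR-29b-1-5p: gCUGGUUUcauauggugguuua
miR-24-2-5p: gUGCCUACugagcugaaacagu
miR-92a-1-5p: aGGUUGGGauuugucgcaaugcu
miR-30c-2-3p: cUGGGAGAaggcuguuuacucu

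In GRCm38, miR-27a-5p lies at chr8:84208685-84208706 on the plus strand, outside annotated host genes, next to miR-24-2-5p at chr8:84208839-84208860 in an exon of Gm26532. miR-2137 lies at chrX:72992113-72992133 in an intron of Zfp185, and miR-29b-1-5p at chr6:31063067-31063088 on the minus strand in an exon of Gm27019. miR-92a-1-5p lies at chr14:115044437-115044459 in an exon of Mir17hg, the host of the miR-17/92 cluster, and miR-30c-2-3p at chr1:23291754-23291775 in an exon of Gm27028. miR-30b-3p, which was among the 10 highest, had no matching entry.

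The next sequences are those of the miR-200 family and of the miR-181 strands, in which shared seeds can be seen. miR-200b-3p and miR-200c-3p have the same seed, whereas miR-200a-3p has another. miR-181a-1-3p and miR-181c-3p also share a seed.
miR-200b-3p: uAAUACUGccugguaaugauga
miR-200c-3p: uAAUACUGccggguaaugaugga
miR-200a-3p: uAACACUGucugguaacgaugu
miR-200b-5p: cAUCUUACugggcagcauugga
miR-181a-1-3p: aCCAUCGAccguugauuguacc
miR-181c-3p: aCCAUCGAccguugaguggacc

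miR-200a-3p (chr4:156054911-156054932), miR-200b-3p (chr4:156055685-156055706) and miR-200b-5p (chr4:156055721-156055742) lie within an intron of Ttll10 (minus strand), and miR-200c-3p lies at chr6:124718324-124718346 in an intron of Gm15884. miR-181c-3p lies at chr8:84178885-84178906 in an intron of Nanos3, and miR-181a-1-3p at chr1:137966508-137966529 in an exon of A430106G13Rik. The other shared seeds were CUCUGGG, in miR-326-3p and miR-330-5p, and UAUACAA, in let-7a-1-3p and let-7c-2-3p, which are identical over their whole length. In all, 8 EV-unread miRNAs shared 4 seeds, and the 90 matched sequences held 86 distinct seeds.

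Mouse miRNAs received between 8745848 and 12732173 reads in the cell libraries and between 503070 and 687592 in the EV libraries, and the spike-in took 57.4 to 66.9% of the reads in cells and 97.6 to 98.4% in EVs. The EV-unread miRNAs made up 0.247 to 0.283% of the mouse miRNA reads of each cell library. A count of 0 in an EV library allows up to 3 counts, that is 0.000436 to 0.000596% of its mouse miRNA reads, for counting error only. Among hepatocyte miRNAs, miR-194-5p had 218474 to 342726 reads in cells and 3784 to 5454 in EVs. miR-192-5p had 10976 to 20510 in cells and 0 to 1058 in EVs. miR-122-5p had only 356 to 485 in cells but 795 to 2327 in EVs, and miR-148a-3p 7 to 75 and 548 to 964. The erythroid miR-451a and the leukocyte miR-142a-3p had 0 reads in every cell library, but 3595 to 4430 and 1117 to 2157 in the EV libraries. The EV libraries thus also held miRNAs without reads in the cells. Other miRNAs of these cell types had cell reads, with 68 to 193 for the erythroid miR-486a-5p. The leukocyte miR-150-5p had 8 to 87 and miR-223-3p 0 to 6. The part of miRNAs with few or no cell reads in the results below was not tested.

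The level of the EV-unread miRNAs in cells spanned 2 orders of magnitude. Their counts ran from 20 to 4787 per library, with a median of 104.5. In every cell library, 34 had 100 reads or more and 12 had 500 or more, whereas 26 stayed under 100 throughout. The 10 highest held 51.6% of all their reads. Levels are given below as raw counts or as reads per 1000000 spike-in reads (spike-in RPM).

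**Figure D1:**
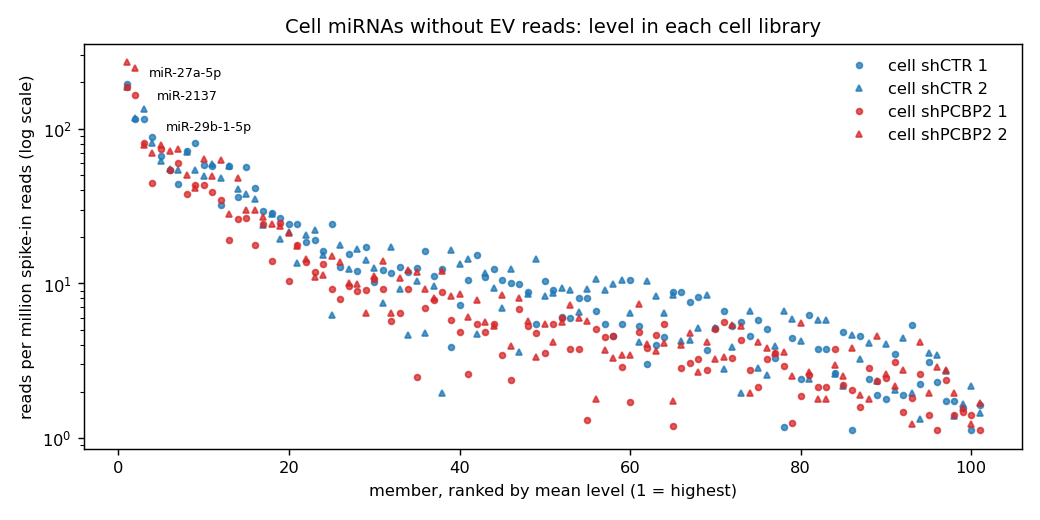
Level of each EV-unread miRNA in the 4 cell libraries, in spike-in RPM, on a log scale, with members ordered by their mean (blue, shCTR; red, shPCBP2; circles, replicate 1; triangles, replicate 2). miR-27a-5p, miR-2137 and miR-29b-1-5p stand at the left end, with a mean of 209.5 for the first.

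miR-27a-5p, the passenger strand of the hairpin of miR-27a-3p, was the highest. It had 3476 and 2941 reads in shCTR cells against 3310 and 4787 in shPCBP2 cells, that is 191 ± 5.75 and 228 ± 57.3 spike-in RPM (mean ± SD, n = 2). The conditions overlapped. miR-2137, a miRNA with no opposite strand in the table, had 2060 and 1858 reads in shCTR cells against 2925 and 4373 in shPCBP2 cells, and both shPCBP2 libraries were above both shCTR libraries also per spike-in read (117 ± 1.76 against 206 ± 56.3). miR-29b-1-5p, from a hairpin whose guide represses collagen mRNAs, had 2075 and 2116 reads in shCTR cells against 1428 and 1403 in shPCBP2 cells. This one was lower in both shPCBP2 libraries.

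The next places were taken by miR-24-2-5p, with 1588 and 1278 reads in shCTR cells against 784 and 1235 in shPCBP2 cells, and by miR-30b-3p, with 1188 and 977 in shCTR cells against 1310 and 1407 in shPCBP2 cells. miR-92a-1-5p had 1277 and 1118 reads in shCTR cells against 670 and 893 in shPCBP2 cells. miR-181c-3p had 1452 and 856 reads in shCTR cells against 764 and 736 in shPCBP2 cells, and miR-30c-2-3p had 1043 and 783 in shCTR cells against 765 and 1139 in shPCBP2 cells. Except for miR-30b-3p and miR-30c-2-3p, the raw counts of these strands were higher in both shCTR libraries than in either shPCBP2 library.

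Replicates of 1 condition differed by a median of 0.52 on the log2 scale in shCTR and 0.47 in shPCBP2. The widest differences were those of miR-5099 in shCTR, with 222 and 31 reads, and of miR-3099-3p in shPCBP2, with 44 and 211 reads.

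At the edge of the rule, the counts inside and outside were alike. miR-26a-1-3p (20, 73, 36 and 68 reads in shCTR 1 and 2 and shPCBP2 1 and 2), miR-744-3p (41, 54, 20 and 51) and miR-7070-5p (20, 34, 25 and 22) were just inside. With 0 reads in EVs but a lowest cell count of 19, let-7b-3p (79, 100, 19 and 41), miR-1930-5p (32, 19, 26 and 28) and miR-497a-5p (19, 70, 74 and 44) were just outside. On the EV side, miR-378c had 0, 1, 2 and 3 reads, miR-106a-5p had 1, 2, 3 and 1, and miR-10a-3p had 18 reads in 1 EV library and 0 in the others, with 768 to 1358 reads in cells. miR-10a-3p, more abundant in cells than most EV-unread miRNAs, thus missed the rule by the reads of 1 library.

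The zeros in EVs went together with abundance in cells, as a description of how the rule divides the table. Of the miRNAs with a mean cell count of 50 to 100, 70.7% had no EV reads, and of those with 200 to 500, 36.8%. The fall was not steady, since the share was 42.9% (9 of 21) from 500 to 1000. It was 26.3% (5 of 19) from 1000 to 2000 and 6.45% (2 of 31) from 2000 to 5000, and no miRNA over 5000 was without EV reads (0 of 19 up to 10000 and 0 of 73 above). The 2 miRNAs between 2000 and 5000 were miR-27a-5p and miR-2137. These shares count miR-31-3p with the miRNAs without EV reads.

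**Figure D2:**
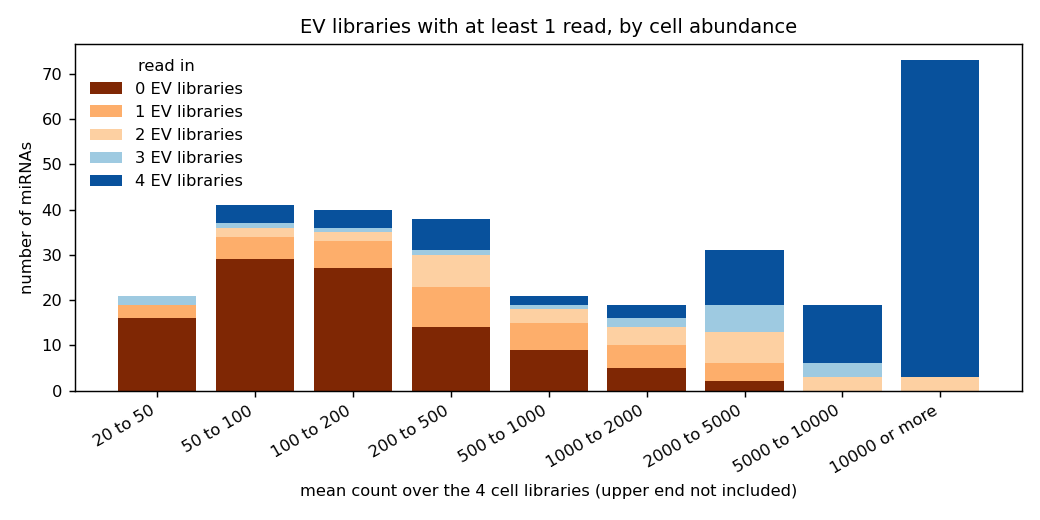
Number of miRNAs with at least 20 reads in every cell library, by mean cell count, coloured by the number of EV libraries with at least 1 read. The darkest brown, no EV library, falls from 76.2% of the lowest class to 0 of the 73 miRNAs in the highest.

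EV counts were rarely low. Of the 761 EV counts above 0, only 3.68% were from 1 to 40, and the 5th percentile was 48, while 42.3% of the cell counts above 0 were in that low range. Among miRNAs with at least 20 reads in every cell library, 38 were read in exactly 1 EV library, and 35 of these had over 48 reads there, with a median of 93. Since EV counts under 48 were rare, limits with 48 counts are given below beside those with 3 counts.

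With 3 counts per EV library, the levels relative to the spike-in were at least 14.7-fold to 2086-fold lower in EVs than in cells, with a median bound of 68.1-fold. The bound was 2086-fold for miR-27a-5p, 1605-fold for miR-2137 and 1022-fold for miR-29b-1-5p. It was 584-fold for miR-200b-3p, 578-fold for miR-200a-3p and 536-fold for miR-30c-2-3p. For comparison, the 121 miRNAs read in all 8 libraries were a median of 28.1-fold lower in EVs, with 245-fold for the lowest ratio.

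With 48 counts in place of 3, the median bound fell to 4.26-fold, with 130-fold for miR-27a-5p and 100.3-fold for miR-2137, and it was under 1 for 3 EV-unread miRNAs. With 3 counts, and levels scaled to all mouse miRNA reads instead, the median bound was 1.99-fold, and it was under 1 for 21. The lowest EV/cell count ratio of the 121 miRNAs read in all 8 libraries was 0.712% (miR-206-3p). In raw counts, the limit of 3 counts placed 17 EV-unread miRNAs under it, but with 48 counts none was. With 48 counts, no EV-unread miRNA was therefore placed outside the range of ratios of the 121 miRNAs. Ratios of miRNAs read in fewer EV libraries, such as miR-10a-3p with 18 EV reads, were not part of this comparison.

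A benchmark was computed by giving each EV-unread miRNA the EV/cell count ratio of another miRNA. At the median ratio of the 121 miRNAs read in all 8 libraries, 5.57% in shCTR and 6.64% in shPCBP2, the EV count would have been over 3 per library in at least 1 condition for 94 of 101, but over 48 for only 13. The median benchmark was 8.03 reads per library in shCTR and 5.71 in shPCBP2. Both medians lie in the range of 1 to 40 that the EV libraries seldom held.

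**Figure D3:**
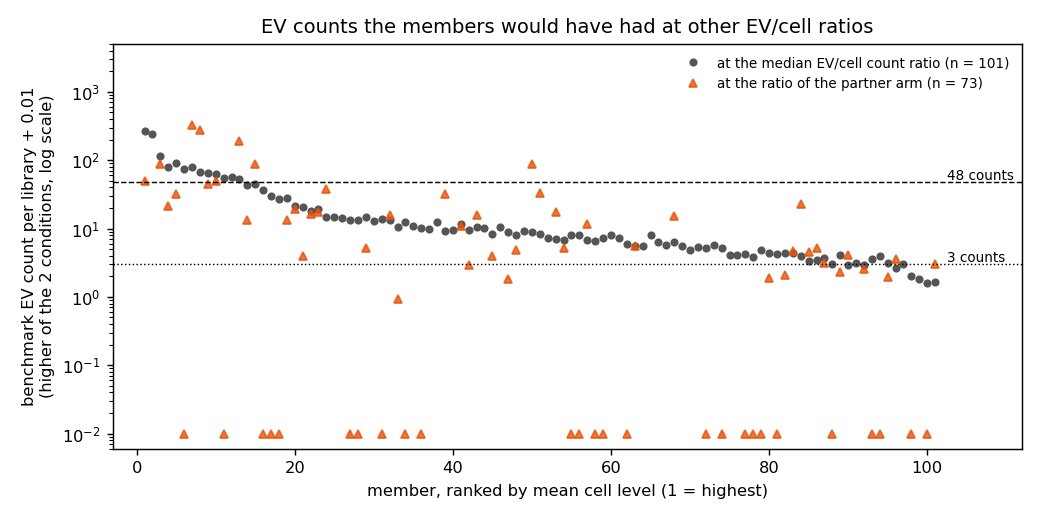
EV count per library that each EV-unread miRNA would have had at the median EV/cell count ratio (grey circles) or at the ratio of the opposite strand of its hairpin (orange triangles, where that strand had cell reads), with 0.01 added and the higher of the 2 conditions plotted, on a log scale. The dotted line marks 3 counts and the dashed line 48 counts, and 94 grey circles lie above the first but 13 above the second.

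The opposite strand of the same hairpin comes from the same primary transcript. By name, 79 EV-unread miRNAs had an opposite strand in the table. For 37 of them the EV-unread strand was the minor one in cells, and for 42 the major one. Among the comparison miRNAs with EV reads, 38 of 168 with an opposite strand were the minor one, that is 22.6% against 46.8%. Within a mean cell count of 100 to 500 the shares were 54.3% (19 of 35) and 42.4% (14 of 33), and within 500 to 5000 they were 44.4% (4 of 9) and 27.7% (13 of 47). The rule selects on abundance and on EV reads, so these shares were not tested.

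The minor strands held a median of 2.66% of the reads of their hairpin, with 16 under 1% and 9 over 10%. Of the 37 minor strands, 33 had an opposite strand with EV reads, against 2 of the 42 major strands, and in 18 of the 42 the opposite strand had no cell reads either. Another 13 EV-unread miRNAs carry the number of their hairpin, such as miR-24-2-5p, and share the opposite strand with another hairpin. With these, 49 of 92 were the minor strand, and 9 had no opposite strand in the table.

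**Figure D4:**
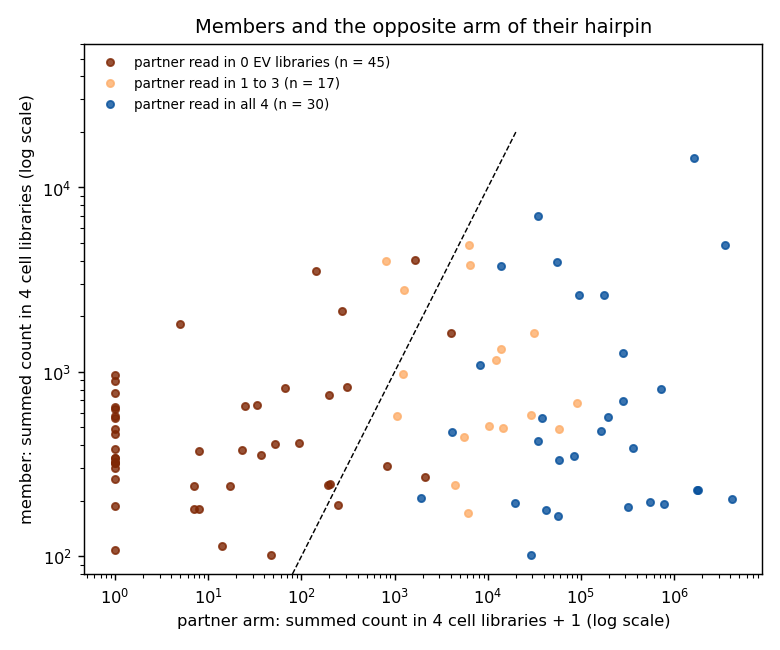
Summed count over the 4 cell libraries of each EV-unread miRNA (vertical axis) and of the opposite strand of its hairpin plus 1 (horizontal axis), both on log scales, with equality dashed and the colour giving the number of EV libraries in which the opposite strand was read. The opposite strands read in all 4 EV libraries (blue) lie to the right of the line, where the EV-unread strand is the minor one.

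Several EV-unread miRNAs were passenger strands of very abundant guides. miR-27a-3p had 327450 to 487261 reads in cells and 4051 to 6743 in EVs, and miR-27a-5p made up 0.875% of the reads of the hairpin in cells. At the EV/cell ratio of miR-27a-3p, miR-27a-5p would have had 45.1 reads per EV library in shCTR and 48.7 in shPCBP2, where it had 0 in each. miR-24-2-5p made up 0.141% beside miR-24-3p, which had 752738 to 1048710 reads in cells and 11992 to 15457 in EVs.

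miR-191-3p is the passenger strand of miR-191-5p, a guide read deeply in both EVs and cells. miR-191-3p had 185 and 131 reads in shCTR cells against 63 and 97 in shPCBP2 cells, and miR-191-5p had 27954 to 54034 reads in cells, 29229 and 23897 in shCTR EVs against 25623 and 16650 in shPCBP2 EVs. The benchmark for miR-191-3p was 88.3 reads per library in EV shCTR and 49.4 in EV shPCBP2. Both values exceeded 48, yet no read was counted.

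miR-92a-1-5p had a larger benchmark at the ratio of its opposite strand. At the median ratio, miR-92a-1-5p would have had 66.7 reads per EV library in shCTR and 51.9 in shPCBP2. Its opposite strand miR-92a-3p, which the miR-92a-2 hairpin also yields, had 4311 and 3189 reads in shCTR EVs against 4990 and 2909 in shPCBP2 EVs, and the benchmark of miR-92a-1-5p was 274 reads per library in each condition. For miR-29b-1-5p it was 86.6 in shCTR and 38.9 in shPCBP2, for miR-181a-1-3p 44.8 and 87.6, and for miR-30c-2-3p 39.8 and 49.5. In these hairpins the opposite strand was read in all 4 EV libraries. Since opposite strands such as miR-29b-3p come from more than 1 hairpin, their EV reads cannot be assigned to 1 of them.

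Some benchmarks rested on few EV libraries. The largest by name, 332 reads per library for miR-200a-3p in shPCBP2, came from 124 reads of miR-200a-5p in 1 EV library, and it was 0 in shCTR. That of miR-350-5p, 69.4 in shCTR and 189 in shPCBP2, came from 77 and 92 reads of miR-350-3p in 1 library of each condition, and that of miR-330-5p, 38.2 in shCTR, from 119 reads of miR-330-3p in 1 library. For miR-181c-3p it was 45.5 and 37.4, with 44, 106, 128 and 0 reads of miR-181c-5p in the EV libraries. At the ratio of the opposite strand, 28 of the 79 miRNAs would have had over 3 reads per library in at least 1 condition, but 4 over 48. With the 13 hairpin-numbered miRNAs, these were 39 and 8 of 92.

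The lower part of the list held passenger strands of guides with high counts in cells and EVs. miR-16-2-3p had 34 to 86 reads in cells, where miR-16-5p, a repressor of cell cycle genes, had 821273 to 1248070. let-7e-3p had 115 to 307 reads beside 130133 to 198341 of let-7e-5p, and miR-23b-5p had 34 to 81, which was 0.0247% of the reads of its hairpin. At such levels, their opposite strands being read in every EV library, the benchmarks of these strands stayed under 48.

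Other EV-unread miRNAs were the major strand. The miR-200 family, known for keeping the epithelial state by repressing Zeb1 and Zeb2, had 6 strands with at least 20 reads in every cell library, and 4 of them had no EV reads. miR-200b-3p had 962 and 869 reads in shCTR cells against 951 and 1272 in shPCBP2 cells, which was 71.3% of the reads of its hairpin. miR-200a-3p had 779 and 855 reads in shCTR cells against 1057 and 1321 in shPCBP2 cells, 83.2% of those of its hairpin. Both guides were similar in level and were read from the same intron. miR-200b-5p, the passenger strand, had 508, 445, 247 and 433 reads, so that neither strand of this hairpin had EV reads. miR-200c-3p was less abundant, with 180 and 196 reads in shCTR cells against 42 and 70 in shPCBP2 cells.

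The opposite strand had cell reads but no EV reads for 26 EV-unread miRNAs. In 3 hairpins besides that of miR-200b, both strands met the rule. miR-33, in an intron of the sterol regulator Srebf2, had 170 to 278 reads of the 5p strand and 58 to 96 of the 3p strand. miR-700, in Rcan3, had 313 to 743 reads of the 3p strand, which lies in an exon, and 35 to 104 of the 5p strand, which lies in an intron. miR-326, in an intron of Arrb1, had 38 to 112 reads of the 5p strand and 32 to 65 of the 3p strand. Other major strands were miR-676-3p with 684 to 1017 reads (96.1% of its hairpin), miR-187-3p with 378 to 527 (99.8%), miR-132-3p, known from neurons, with 137 to 199, and miR-34c-5p, a miRNA induced by p53, with 73 to 217.

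Different EV-unread miRNAs from neighbouring hairpins within 10 kb formed 6 clusters. On chromosome X, miR-500-5p, miR-501-5p, miR-362-3p and miR-532-3p came from introns of Clcn5, with counts from 28 for miR-362-3p to 431 for miR-500-5p. Also on X, miR-450b-5p, miR-450a-1-3p, miR-542-5p and miR-503-3p lay outside annotated genes, with 26 to 350 reads. The cluster of miR-182, miR-96 and miR-183 on chromosome 6, known from sensory organs, gave its 3 passenger strands, of which miR-96-3p had 463 to 853 reads. All these were the minor strand of their hairpin.

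Among families, EV-unread strands made up 3 of the 12 let-7 strands with at least 20 reads in every cell library, 2 of 18 of the miR-17/92 cluster and its paralogs, 3 of 10 of miR-23/27/24, 3 of 11 of miR-30, 2 of 6 of miR-29, 2 of 6 of miR-181, 1 of 5 of miR-15/16 and 1 of 2 of miR-34. The miR-200 family, with 4 of 6, had the largest share of the listed families. The Dlk1-Dio3 cluster, an imprinted cluster with 106 miRNAs in the table, had 1 miRNA at 20 reads in every cell library and no EV-unread miRNA. Over all 303 miRNAs with at least 20 reads the rule kept 101, so that shares of 2 of 6 stand at the background.

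The mature sequences were searched for 4 short motifs on the mature strand only. The core CELL motif was taken as AUUA or AUUG, the core of the export motif hEXO as GGCU, and GGAG is a further export motif. AUUA or AUUG was present in 13 of 90 EV-unread sequences (14.4%), 29 of 181 with EV reads (16.02%) and 149 of 1679 in the whole table (8.87%). GGCU was present in 11.1%, 14.9% and 13.3% of them, and GGAG in 13.3%, 12.2% and 14.2%. The share with a core CELL motif was thus higher than in the whole table but not than in the abundant miRNAs with EV reads. Taken singly, AUUA was in 5 EV-unread sequences (5.56%), 3 with EV reads (1.66%) and 42 in the table (2.50%), and AUUG in 10.0%, 14.4% and 6.79%.

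The 5 sequences with AUUA, the motif whose share was above that of both other sets, are shown with the motifs AUUA, AUUG and GGCU in capitals in place of the seed. miR-26b-3p and miR-3084-5p, which the study names, are among them. The study counts both as expressed in EVs, measured them there by RT-qPCR, and reports that PCBP2 binds both. Having no EV reads in these libraries is thus not absence from EVs. The motifs AUUA and AUUG overlap by 1 base in miR-16-2-3p.
miR-26b-3p: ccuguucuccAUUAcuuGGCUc
miR-3084-5p: guugaagguuaAUUAgcagagu
miR-16-2-3p: accaauAUUAUUGugcugcuuu
miR-183-3p: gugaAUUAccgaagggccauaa
miR-3066-5p: uugguugcuguagAUUAaguag

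miR-26b-3p was the one of the 90 EV-unread sequences with both a core CELL motif and an exact GGCU. The study searched for hEXO as a longer motif with variable bases, and counts miR-3084-5p as bearing both CELL and hEXO. The exact search here is therefore narrower than that of the study. It lies at chr1:74394360-74394381 in an intron of Ctdsp1, and had 98 and 143 reads in shCTR cells against 79 and 66 in shPCBP2 cells. Its opposite strand, miR-26b-5p, had 63335 to 105091 reads in cells and 7666 to 10607 in EVs. miR-3084-5p matched 2 places on chromosome 19, chr19:24942276-24942297 in an intron of Cbwd1 and chr19:60774370-60774391 in an intron of Eif3a, and had 288 and 75 reads in shCTR cells against 123 and 165 in shPCBP2 cells. The shCTR replicates of miR-3084-5p were further apart than the conditions.

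Other features were set beside those of the miRNAs with EV reads, as shares with no test. The median length was 22 bases in each set. U was the first base in 27.8% of EV-unread sequences, 42.5% of those with EV reads and 40.9% of the table, and G in 17.8%, 7.73% and 12.8%. A first U is common in guide strands. By name, 49.5% of the EV-unread miRNAs were 3p strands and 43.6% were 5p strands, against 40.8% and 57.2% of those with EV reads. Of the 93 mapped places, 58.1% were intronic, 20.4% exonic and 21.5% without a host gene, against 43.7%, 31.1% and 25.2% of the 206 places of miRNAs with EV reads. Chromosome X held 15.1% and 14.1% of these places.

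The cell libraries were next used to ask whether the knockdown changed the cell level of the EV-unread miRNAs. The rule used these counts through a minimum that treats both conditions alike. A miRNA of low count that fell strongly in shPCBP2 cells could still miss this minimum. All tested miRNAs did not have to meet it, so their shares are not a like comparison, whereas the 201 with EV reads met it too. The test was edgeR's quasi-likelihood test with spike-in scaling and Benjamini-Hochberg adjustment over the 574 miRNAs with reads in at least 2 cell libraries. By this test, 0 of the 101 had an adjusted p under 0.05. Of the 574, 4 (0.697%) had, all lower and all among the 201 with EV reads. At an unadjusted p under 0.05, 8 of the 101 were lower and 1 higher. The shares were 15.2% lower and 3.48% higher over all tested miRNAs, and 32.8% lower and 0.995% higher among the 201 with EV reads. DESeq2 called 3 of the 101 (2 lower and 1 higher), 37 of the 201 and 43 of 574 (7.49%). It gave no adjusted p to 167 of the 574. Robust estimation in edgeR called 4 of the 101 (3 lower and 1 higher), 27 of the 201 and 33 of 574 (5.75%). On simulated data the main edgeR test called 17 of 190 miRNAs with a log2 change of 1, so most such changes would go uncalled over all tested miRNAs. The changed miRNAs were drawn from all tested ones, including those of low count. The share called among EV-unread miRNAs was not simulated separately.

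The median change of the EV-unread miRNAs was close to that of the whole table. Their median log2 change in shPCBP2 against shCTR was −0.52, and that of all tested miRNAs −0.48. Under TMM scaling the 2 medians were −0.02 and 0.00, so the general decrease was one relative to the spike-in. Less miRNA per cell, fewer cells and more spike-in per sample cannot be told apart in these libraries. Both shPCBP2 libraries were below both shCTR libraries for 45 of 101 (44.6%) and above for 5 (4.95%), beside 40.4% and 8.54% of all tested miRNAs. The latter did not have to reach 20 reads, and the 201 with EV reads were not counted in this way. By edgeR with the spike-in, the log2 change was negative for 81 of the 101, 182 of the 201 and 423 of the 574.

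**Figure D5:**
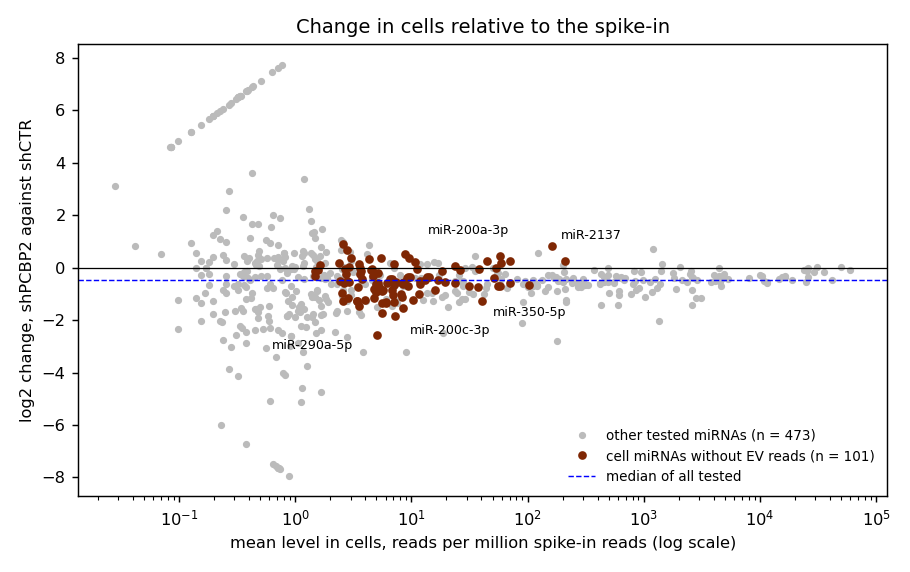
Log2 change in cells, shPCBP2 against shCTR relative to the spike-in, against the mean level on a log scale, for the EV-unread miRNAs (brown) and the other tested miRNAs (grey), with the median of all tested miRNAs dashed. The brown points have a median of −0.52 beside −0.48 for all tested miRNAs, with miR-2137 above and miR-290a-5p below.

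When only the 303 miRNAs with at least 20 reads in every cell library were tested, the common dispersion fell from 0.602 to 0.0689, and 30 of 303 (9.9%) had an adjusted p under 0.05, all lower. Of these, 5 were EV-unread. miR-290a-5p, from a cluster known from mouse embryonic stem cells, had 158 and 133 reads in shCTR cells against 21 and 31 in shPCBP2 cells, without overlap. Its log2 change was −2.56 ± 0.65 (SE), with an adjusted p of 0.157 over 574 miRNAs and 0.000282 over 303 by edgeR, and up to 0.552 over all alternatives.

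miR-200c-3p, with the counts given above and without overlap, changed by −1.84 ± 0.57 (SE) on the log2 scale, with an adjusted p by edgeR of 0.223 over 574 miRNAs and 0.0115 over 303. miR-203-3p, known from skin, had 189 and 102 reads in shCTR cells against 30 and 61 in shPCBP2 cells, with −1.74 ± 0.68 and adjusted p values by edgeR of 0.263 and 0.0218. miR-18a-3p, a passenger strand of the miR-17/92 cluster, had 187 and 227 reads in shCTR cells against 46 and 108 in shPCBP2 cells, with −1.52 ± 0.60 and 0.263 and 0.0402. These 3 were lower in both shPCBP2 libraries, but over all alternatives their adjusted p ranged up to 0.562, 0.656 and 0.753.

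miR-350-5p, from an intron of Cep170, had 1023 and 905 reads in shCTR cells against 337 and 502 in shPCBP2 cells, that is 57.5 ± 0.0813 and 23.6 ± 6.42 spike-in RPM (mean ± SD, n = 2). Its log2 change was −1.28 ± 0.31 (SE), with an adjusted p by edgeR of 0.148 over 574 miRNAs and 0.0218 over 303. In 7 of 13 alternatives it fell under 0.05, ranging from 0.00803 to 0.671. The opposite strand miR-350-3p had 531 and 539 reads in shCTR cells against 71 and 133 in shPCBP2 cells, a log2 change of −2.48 ± 0.44 with an adjusted p of 0.0501 by edgeR. Both strands of this hairpin were lower in each shPCBP2 library than in each shCTR library.

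miR-2137 was the one EV-unread miRNA that was higher at an unadjusted p under 0.05. Its log2 change was 0.82 ± 0.25 (SE), with an adjusted p of 0.223 by edgeR over 574 miRNAs. In 7 of 13 alternatives it fell under 0.05, ranging from 0.000902 to 0.805, and the direction was the same in all of them. With TMM factors 3 EV-unread miRNAs were called, where 26 of the 201 with EV reads and 29 of 574 (5.05%) were. The log2 change of miR-2137 was then 1.29, and miR-27a-5p (0.73) and miR-200a-3p (0.95) were also higher, with adjusted p values by edgeR of 0.011 and 0.0263 (up to 0.999 for both over all alternatives). Relative to the spike-in these had log2 changes of 0.26 ± 0.24 and 0.45 ± 0.27 (SE), with adjusted p values by edgeR of 0.676 and 0.438. Of the 2 guides of the miR-200 cluster on chromosome 4, neither was therefore called with the spike-in.

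The remaining miRNAs at an unadjusted p under 0.05 were miR-29b-1-5p, miR-652-5p and miR-92a-1-5p. Their log2 changes were −0.65 ± 0.21, −1.25 ± 0.47 and −0.70 ± 0.27 (SE), with adjusted p values by edgeR from 0.231 to 0.263. At an unadjusted p under 0.05 by edgeR, 15.2% of all tested miRNAs and 32.8% of the 201 with EV reads were lower. Both EV-unread strands of the miR-17/92 cluster, miR-18a-3p and miR-92a-1-5p, were also lower at that p. With TMM factors their unadjusted p values by edgeR were 0.0596 and 0.276.

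The opposite strands can be set beside them. Of the 67 distinct opposite strands tested, 1 had an adjusted p under 0.05 by edgeR, and their median log2 change was −0.54. That one was miR-455-3p, with 2542 and 2338 reads in shCTR cells against 548 and 654 in shPCBP2 cells, and a log2 change of −2.10 ± 0.23 (SE, adjusted p by edgeR 0.0114). The EV-unread strand miR-455-5p had 55 and 56 reads in shCTR cells against 25 and 35 in shPCBP2 cells, with −0.97 ± 0.92 and an adjusted p by edgeR of 0.687. The difference between the strands was not tested.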

How the data were processed

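Small RNA was sequenced from 3A cells and their EVs in 8 libraries, 2 biological replicates of each of 4 groups, taken from the sample titles. The titles and the sample descriptions number some replicates differently, and the titles were followed. After trimming, the authors mapped the forward read of each pair to hairpins with mirPRo and Novoalign and deposited raw counts per mature miRNA and for the spike-in, without normalization. Those counts were used as deposited.

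The EV-unread miRNAs and the lists were chosen with earlier results of these data known. Levels were expressed per 1000000 cel-miR-39 reads. The cell libraries were tested in R 4.3.3 with edgeR 4.0.16 (quasi-likelihood test, library sizes proportional to the spike-in, prior count 0.125) over miRNAs with at least 1 read in at least 2 cell libraries, with Benjamini-Hochberg adjustment and a threshold of 0.05. Standard errors were derived from the F statistic and are approximate. The fit had 2 residual and 4.99 prior degrees of freedom. Only cell libraries were fitted, because EV-unread miRNAs have no EV reads to test. This step was tested on simulated data. Of 190 changed miRNAs it called 17 at a log2 change of 1 and 76 at a log2 change of 2, with 0 false calls. With at least 20 counts in every cell library it called 128 of 189 and 177 of 177, with 1 and 5 false calls.

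Alternatives changed the scaling (TMM, median-of-ratios or the total miRNA count), the filter (a minimum of 20 counts, or none), the tool (DESeq2 1.42.0, or robust estimation), the libraries fitted (all 8, or each left out) and the block (replicate number). Opposite strands of hairpin-numbered miRNAs, the limit with 48 EV counts and that with total scaling were added after seeing the data. Reads carry no molecular identifiers in these counts, so limits cover counting error only. The p-values rest on the spread between 2 replicates and on dispersion shared over the tested miRNAs. Sequences and host genes came from RefSeq (GRCm38.p6) and GENCODE (GRCm38), and tables and plots from Python 3.11.15, pandas 2.3.3 and matplotlib 3.10.9.

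The miRNAs named by rule were the 10 highest in cells, those with an adjusted p under 0.05 (none in the cell test), those the study names, the 6 with the largest benchmark, hairpins with both strands, those at the edges of the rule and those in the family lists. Other miRNAs named were chosen after their values were seen.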

Additional observations from a re-analysis of the deposited data

How the results depend on the processing

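Against the 4 miRNAs called in cells, of which 0 were EV-unread, other settings called more: 29 (3 EV-unread) with TMM factors, 24 (3) with median-of-ratios factors, 34 (3) with the total miRNA count, 30 (5) with at least 20 counts in every cell library, 32 (3) with no filter, 43 (3) with DESeq2, 33 (4) with robust estimation, but 0 (0) with all 8 libraries fitted, where 1 EV-unread miRNA had an unadjusted p under 0.05. With TMM factors, 13 of the 29 calls and all 3 of the EV-unread ones were higher. With the replicate number as a block, 25 were called, 1 of them EV-unread (miR-350-5p). Deviations of same-numbered libraries correlated at 0.002 over 303 miRNAs, so no pairing by number was seen. This value cannot settle whether libraries were paired, since titles and descriptions number some replicates differently. Leaving out 1 cell library gave 5 to 85 calls, and 0 to 3 among EV-unread miRNAs, and 85 and 3 were reached without cell shPCBP2 replicate 2. Without that library, miR-200b-3p (−0.019) and miR-27a-5p (−0.026) turned in direction; with any 1 library left out they ranged up to 0.39 and 0.49. The log2 change of miR-3084-5p turned to 0.092 with TMM factors, 0.13 with median-of-ratios factors and 0.77 without cell shCTR replicate 1 (down to −0.99 without replicate 2). That of miR-30c-2-3p, −0.01, turned to 0.45, 0.48 and 0.25 with TMM, median-of-ratios and total scaling, 0.11 without cell shCTR replicate 1 and 0.24 without cell shPCBP2 replicate 1 (down to −0.32 without replicate 2). The cause was not tested. Under the higher minimum both the number of miRNAs tested and the common dispersion were lower, and the 2 were not told apart.

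The rule kept 101 miRNAs, 128 with a minimum of 10 cell counts, 62 with 50, 103 with up to 3 EV counts, and 103 to 118 with 1 library left out. Benchmarks over the limit numbered 28 at the ratio of the opposite strand, 94 at the median ratio and 4 with 48 counts. The share with AUUA or AUUG was 5.57 percentage points above the whole table and −1.58 points from the miRNAs with EV reads. The median bound of 68.1-fold became 4.26-fold with 48 counts and 1.99-fold with total scaling.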
